A study of Homo sapiens with 3 samples.

Results

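Collagen genes were described in primitive neural progenitor cells (pNPCs), an early neural stage, made from H1, an established human embryonic stem cell line. The members are the 44 genes of 62754 in the deposited tables whose symbol has the form COL, a type number, A and a chain number. They fall into 1 group of 3 wild-type replicates, with no other genotype or treatment, and polyA RNA was sequenced. Per the labels, all 3 were grown in N2 and B27 medium lacking retinoic acid, with FGF2, the GSK3 inhibitor CHIR99021, leukemia inhibitory factor, the TGF-beta receptor inhibitor SB431542 and the ROCK inhibitor Y-27632. All cells come from this single line. Separate cultures are not stated for the replicates, so each p-value reflects variation among these libraries that could be technical alone.

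Collagens are extracellular proteins in which 3 chains wind into a triple helix, each chain the product of its own gene. Fibrillar collagens build the cross-striated fibrils of connective tissue. Type IV collagen builds the sheet of basement membranes, which surround vessels and line the neural tube. The other classes decorate fibrils, form fine filaments or stay anchored in the cell membrane. In the embryo fibrillar chains are made chiefly by mesenchyme, cartilage and their neural crest precursors, and type IV chains by most epithelia and endothelia.

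Libraries held between 30038114 and 38400092 expected counts, RSEM's estimate of reads per gene. The labelled cell type was checked against its markers, and 9 of 10 neural progenitor genes were detected, PAX6 not among them at 0.13, 0.81 and 0.38 TPM in replicates 1, 2 and 3. TPM is a transcript level corrected for length and depth, and detected means at least 1 TPM in all 3 libraries. All 11 mesenchyme and fibroblast markers and all 8 neural crest markers were detected too, with summed levels of 504 to 1047 and 230 to 289 TPM. The neural progenitor list summed to 2315 to 2634 TPM, most of it from VIM, an intermediate filament gene that mesenchyme also expresses. Without VIM, left out after its values were seen, the other 9 progenitor genes summed to 686, 521 and 591 TPM in replicates 1, 2 and 3, above the mesenchyme list in replicate 1 and below it in replicates 2 and 3. In bulk RNA, more cells of a type and more RNA per cell cannot be told apart, and no collagen level here can be assigned to a cell type. The mean fragment length given by length minus effective length was 217, 254 and 260 bases in replicates 1, 2 and 3, shortest in replicate 1.

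Of the 44 collagen genes 29 were detected, against 62.2% of protein-coding genes and 23.0% of all genes. A further 4 reached 1 TPM in some libraries but not in all, and 11 reached it in none. The 29 detected genes included 4 with a mean of at least 100 TPM, 19 between 10 and 100 TPM and 6 below 10 TPM. Collagen genes together made up 1320, 2126 and 1690 TPM in replicates 1, 2 and 3, or 0.377%, 0.585% and 0.447% of all expected counts. The 5 highest, COL2A1, COL1A2, COL4A2, COL26A1 and COL3A1, took 59.8% ± 1.97 of the collagen TPM (SD, n = 3). The collagen total was lowest in replicate 1 and highest in replicate 2, the order also seen in the summed mesenchyme markers (504, 1047 and 778 TPM). Neural crest (230, 289 and 264 TPM), chondrocyte, and pericyte and smooth muscle sums had this order too, and osteoblast, endothelial and epidermal sums did not. Within the mesenchyme list POSTN was highest in replicate 1, PDGFRA and FAP were highest in replicate 3, and S100A4 was lowest in replicate 3. The neural progenitor sum without VIM ran opposite to the collagen total, highest in replicate 1 and lowest in replicate 2. FABP7, SOX2, SOX3, HES1 and SOX1 had the order of that sum. NES, at 157, 195 and 191 TPM, and the undetected PAX6 had the order of the collagen total. CDH2 and MSI1 were highest in replicate 3. The median progenitor gene, in log2 CPM less the mean of the remaining libraries, lay at 0.94, -0.64 and -0.19 in replicates 1, 2 and 3. The transcription factor genes SOX3, with 85.8, 36.1 and 42.0 TPM, and HES1, with 35.5, 13.3 and 15.8 TPM, were each highest in replicate 1. Both had excess spread between libraries in the edgeR test described further on (edgeR adjusted p = 0.0112 and 0.0161). Of the mesenchyme markers, PDGFRA and FBN1 had it too (edgeR adjusted p = 0.000325 and 0.0134). These were 2 of 9 tested progenitor and 2 of 11 tested mesenchyme markers, against 1.59% of all genes. The part of cell make-up in the collagen total was not tested.

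**Figure D1:**
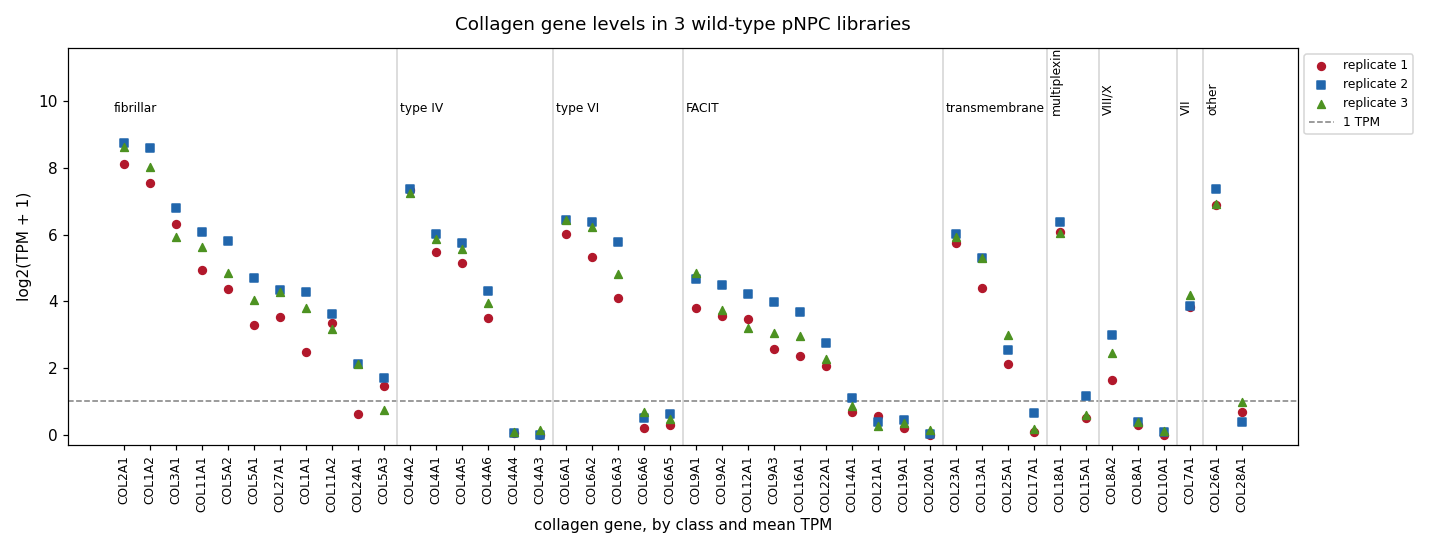
Level of each of the 44 collagen genes as log2(TPM + 1), grouped by class and ordered by mean TPM, with 1 point per library and a dashed line at 1 TPM. COL2A1 and COL1A2 are the highest, with means of 367 and 278 TPM, and replicate 1 (circles) is often the lowest point.

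Fibrillar genes, the class with the most members, had the highest summed level, with 9 of 11 detected and 50.3% ± 2.89 of the collagen TPM (SD, n = 3). By the median member they were not the highest, at 4.17 ± 0.59 in log2(TPM + 1), against 4.90 ± 0.84 for type VI and 4.70 ± 0.36 for type IV genes. COL2A1 (ENSG00000139219.19, chromosome 12, 47972967 to 48006212, RefSeq coordinates on GRCh38.p14 here and for the other genes), whose product forms the homotrimer of cartilage and vitreous, stood at 277, 431 and 393 TPM in replicates 1, 2 and 3. At a mean of 367 ± 80.4 TPM it was the highest collagen gene and rank 331 among protein-coding genes. COL1A2 (ENSG00000164692.19, chromosome 7, 94394895 to 94431227), which encodes the second chain of type I collagen, followed at 185, 388 and 261 TPM, rank 461. Its partner COL1A1 (ENSG00000108821.14, chromosome 17, 50184101 to 50201631) had only 4.62, 18.3 and 12.9 TPM, on 538, 1923 and 803 expected counts. COL3A1 (chromosome 2, 188974373 to 189012746), the homotrimeric chain of reticular fibres, had 79.6, 111 and 59.5 TPM and was lowest in replicate 3.

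The chains of types V and XI, which start and limit the growth of fibrils, lay below COL2A1, COL1A2 and COL3A1 but, apart from COL11A2 and COL5A3, above COL1A1 in every library. COL11A1 (chromosome 1, 102876473 to 103108522) stood at 29.9, 66.6 and 48.97 TPM in replicates 1, 2 and 3. COL5A2, next to COL3A1 on chromosome 2 (189031898 to 189441111), stood at 19.8, 55.5 and 28.0 TPM. COL5A1, which pairs with COL5A2 in type V collagen, had 8.78, 25.02 and 15.5 TPM. All of these were lowest in replicate 1 and highest in replicate 2. COL27A1, a fibrillar chain of developing cartilage, had 10.6, 19.2 and 18.6 TPM. COL11A2, which pairs with COL11A1 in type XI collagen, had 9.17, 11.2 and 8.06 TPM.

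The 2 fibrillar genes below detection each fell short in 1 library. COL24A1, a minor fibrillar chain of developing bone, had 0.53, 3.31 and 3.36 TPM in replicates 1, 2 and 3, on 84, 567 and 444 counts (exact Poisson 95% intervals 67.0 to 104, 521 to 616 and 404 to 487, counting error only). Replicate 1 thus stood apart from the other libraries by more than counting error. COL5A3, the third type V chain, had 1.76, 2.23 and 0.66 TPM and was lowest in replicate 3.

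Among markers of cartilage, in which types II, IX and XI collagen occur together, 7 of 9 chondrocyte genes were detected. Their summed level was 58.5, 98.9 and 88.5 TPM in replicates 1, 2 and 3, led by the transcription factor gene SOX9 at 48.2 ± 7.55 TPM. The cartilage matrix genes HAPLN1 and ACAN were detected at 7.55 ± 4.91 and 3.54 ± 1.86 TPM. The matrix genes MATN1 and COMP were the 2 not detected, at most 0.46 and 0.02 TPM in any library. COL10A1, the chain of hypertrophic cartilage, had 0, 3 and 4 counts, and 3 counts would have been at most 0.0612 TPM. Of 7 osteoblast genes 3 were detected (49.3, 43.1 and 45.2 TPM summed). ALPL made up most of each sum, at 45.25, 34.9 and 36.6 TPM. SPP1, SP7 and DMP1 were not detected, and IBSP had 0 counts in all libraries.

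**Figure D2:**
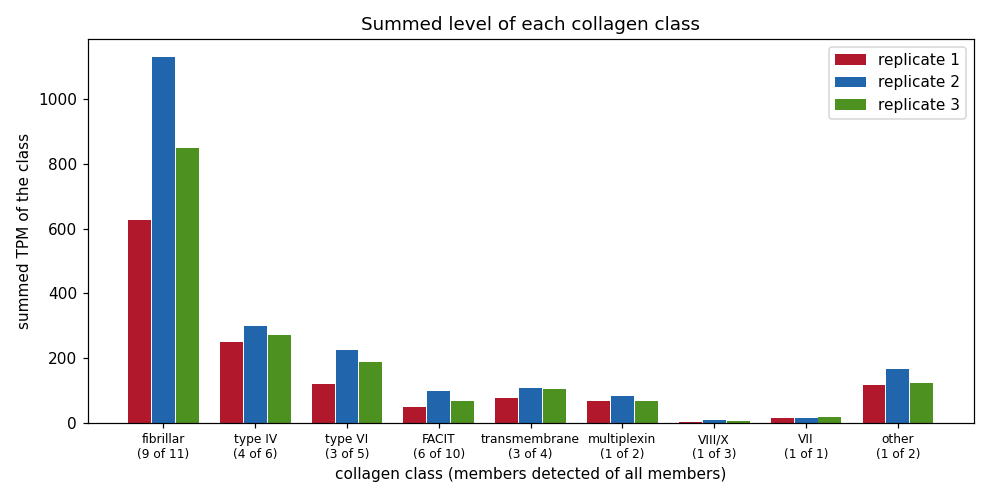
Summed TPM of each collagen class in each library, with the number of members detected of all members under each class. Fibrillar genes sum to 626, 1131 and 849 TPM in replicates 1, 2 and 3, and the type IV genes to 250, 298 and 271 TPM.

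Type IV genes, the basement membrane class, came second at 16.3% ± 2.47 of the collagen TPM, with 4 of 6 detected. The 6 genes lie as 3 pairs, each pair transcribed away from a common start region, and the pairs differed widely in level. COL4A2 (ENSG00000134871.19, chromosome 13, 110307284 to 110513209) had 162, 163 and 152 TPM in replicates 1, 2 and 3, a coefficient of variation of 3.82%. That was less than for any other collagen gene. COL4A1 (ENSG00000187498.16, chromosome 13, 110148963 to 110307157), the other chain of the ubiquitous type IV trimer, had 44.0, 64.1 and 57.5 TPM. COL4A5 and COL4A6 on chromosome X, which share a trimer in smooth muscle and other basement membranes, were both lowest in replicate 1 and highest in replicate 2. COL4A5 had 34.4, 52.2 and 46.8 TPM and COL4A6 10.2, 18.9 and 14.4 TPM. COL4A3 and COL4A4 on chromosome 2, chains of the kidney filter, were near 0. COL4A3 had 0, 0 and 2 counts, where 3 counts would have been at most 0.134 TPM, and COL4A4 had 7, 8 and 11 counts (0.03, 0.03 and 0.06 TPM).

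A window at the start region of each pair is shown because both genes of a pair read from that region in opposite directions. In RefSeq annotation of GRCh38.p14 the starts of COL4A1 and COL4A2 are 127 bases apart, those of COL4A3 and COL4A4 419 and the nearest of COL4A5 and COL4A6 380. Each printed window runs from 250 bases before to 50 after the start of the named gene, on the plus strand, 5′ to 3′. Capitals mark GGGCGG and CCAAT, each searched on both strands, so CCGCCC and ATTGG are marked too. The windows are chr13:110307034-110307333 for COL4A2, chr2:227164374-227164673 for COL4A3 and chrX:108439588-108439887 for COL4A5. Of these only the window of COL4A2 also holds the start of its partner gene.
COL4A2: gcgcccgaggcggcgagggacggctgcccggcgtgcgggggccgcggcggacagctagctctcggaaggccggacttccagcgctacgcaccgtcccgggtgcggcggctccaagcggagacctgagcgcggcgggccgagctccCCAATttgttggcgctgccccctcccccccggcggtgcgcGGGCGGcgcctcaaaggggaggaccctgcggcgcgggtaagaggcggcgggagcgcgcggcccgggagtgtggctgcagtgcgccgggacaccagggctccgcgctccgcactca
COL4A3: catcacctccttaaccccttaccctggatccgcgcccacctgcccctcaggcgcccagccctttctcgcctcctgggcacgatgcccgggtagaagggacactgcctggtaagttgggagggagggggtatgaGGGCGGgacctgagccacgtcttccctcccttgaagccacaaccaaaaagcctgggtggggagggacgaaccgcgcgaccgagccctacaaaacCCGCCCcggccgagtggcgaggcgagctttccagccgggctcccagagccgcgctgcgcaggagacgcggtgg
COL4A5: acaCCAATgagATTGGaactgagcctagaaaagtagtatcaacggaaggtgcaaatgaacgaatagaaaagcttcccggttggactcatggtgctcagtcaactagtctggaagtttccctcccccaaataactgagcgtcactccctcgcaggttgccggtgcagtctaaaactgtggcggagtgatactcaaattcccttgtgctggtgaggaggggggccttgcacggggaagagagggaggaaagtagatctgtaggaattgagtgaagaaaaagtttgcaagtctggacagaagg
The window of COL4A2, from the pair highest in level, held 1 GGGCGG, 1 CCAAT and 45 CG pairs at 77.7% GC. The window of COL4A3, near 0 in level, held 2 GGGCGG, 0 CCAAT and 24 CG pairs at 67.7% GC, and that of COL4A5 held 0 GGGCGG, 2 CCAAT and 8 CG pairs at 49.3% GC. The partner windows, which overlap these only in part, differed in their counts. COL4A1 held 2 GGGCGG and 1 CCAAT, COL4A4 held 0 of each, and the nearer window of COL4A6 held 0 GGGCGG and 3 CCAAT. Of all 35116 RefSeq promoter windows, GGGCGG lay in 45.0%, CCAAT in 34.6% and TATAAA, which none of these 3 printed windows holds, in 11.5%. In the windows that the table has for 32 of the collagen genes (44 windows), they lay in 24, 14 and 8. These matches describe the letters only.

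Type VI genes, whose chains form beaded filaments around cells, held 10.2% ± 1.04 of the collagen TPM with 3 of 5 detected. COL6A1 (chromosome 21, 45981770 to 46005048) had 64.5, 86.6 and 86.3 TPM in replicates 1, 2 and 3. COL6A2, its neighbour on chromosome 21 (46098112 to 46132848), had 39.1, 81.9 and 73.9 TPM. COL6A3 on chromosome 2 had 16.2, 53.8 and 27.2 TPM, 3.32 times as much in the highest library as in the lowest. COL6A5 and COL6A6, which can take the place of the COL6A3 chain, stayed below 1 TPM in every library, at 0.38 ± 0.16 and 0.39 ± 0.23 TPM.

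FACIT genes, whose chains sit on the surface of fibrils, were many but low, with 6 of 10 detected and 4.05% ± 0.52 of the collagen TPM. COL9A1 and COL9A2, of the type IX trimer that coats type II fibrils, were the highest of the class, with COL9A1 at 12.9, 24.4 and 27.7 TPM in replicates 1, 2 and 3. COL9A2 had 10.7, 21.6 and 12.4 TPM and COL9A3 4.89, 14.7 and 7.18 TPM. COL12A1, a FACIT of type I fibrils, had 10.1, 17.6 and 8.13 TPM. COL12A1 lay above COL9A3 in every library. COL16A1 had 4.13, 11.8 and 6.83 TPM, and COL22A1, a chain of tissue junctions, had 3.15, 5.67 and 3.80 TPM. COL14A1 passed 1 TPM in replicate 2 but in no other library, and COL19A1, COL20A1 and COL21A1 in none.

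Transmembrane genes, whose chains are anchored in the cell membrane, held 5.70% ± 0.57 of the collagen TPM with 3 of 4 detected. COL23A1 (chromosome 5, 178237618 to 178590393) had 53.1, 64.4 and 60.1 TPM in replicates 1, 2 and 3, a coefficient of variation of 9.57%. COL13A1, a chain of the neuromuscular junction, had 19.97, 38.4 and 37.99 TPM. COL25A1, found in amyloid plaques and needed in mice for motor nerves to enter muscle, had 3.38, 4.75 and 6.95 TPM. COL17A1, the chain of epidermal hemidesmosomes, had 0.06, 0.56 and 0.12 TPM, with 1 of 6 epidermal markers detected and the epidermal genes KRT5, KRT14, KRT1 and DSG3 at 0 counts in all libraries.

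The remaining classes were each carried by 1 gene. COL26A1 (ENSG00000160963.14, chromosome 7, 101362388 to 101559024), a chain outside the main classes first found in testis and ovary, had 117, 164 and 121 TPM in replicates 1, 2 and 3 and was the fourth highest collagen gene, while COL28A1 stayed below 1 TPM. Of the multiplexins, basement membrane proteoglycans, COL18A1, the source of endostatin, had 67.1, 81.4 and 65.1 TPM and COL15A1 0.41, 1.25 and 0.50 TPM. COL18A1 shares 16.4% of its exon bases with SLC19A1 on the other strand, and 7061, 8641 and 5734 counts were assigned to COL18A1 beside 1188, 1221 and 828 to SLC19A1. The strandedness of the libraries is not given, so the split between these genes is uncertain. COL8A2, of the corneal basement membrane, had 2.09, 6.91 and 4.48 TPM, and its partner COL8A1 0.21, 0.29 and 0.30 TPM. COL7A1, of the anchoring fibrils of skin, had 13.1, 13.4 and 17.1 TPM. Of the cells that make vessel basement membranes, endothelium had 2 of 8 markers detected (6.76, 9.26 and 12.9 TPM summed). Pericytes and smooth muscle had 6 of 8 (83.1, 114 and 94.8 TPM summed), led by NOTCH3 at 40.8 ± 5.04 TPM.

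TPM rests on the length of the transcripts to which RSEM assigned the reads, and for some collagen genes this was short. The mean estimated length of COL7A1 was 2580 bases, or 27.8% of its longest GENCODE 29 transcript (9276 bases). For COL6A3 it was 41.5% and for COL12A1 45.3%, and these 3 of 29 detected collagen genes lay below 50%. The median was 75.2% for detected collagen genes and 79.6% for all detected genes. With every gene given the length of its longest transcript, a setting added after the data were seen, COL7A1 had a mean of 7.44 TPM against 14.5 TPM as deposited. This setting rescales every gene, so these values are not on the same scale. COL2A1, for instance, rose from a mean of 367 to 567 TPM. Of the other detected collagen genes only COL6A3 and COL12A1 fell.

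Trimers of several gene products put a fixed number of each chain in the protein, and the transcript ratios were set beside it. Type I collagen has 2 chains of COL1A1 to 1 of COL1A2, but COL1A1 stood far below COL1A2 in every library. The TPM ratio of COL1A1 to COL1A2 was 0.0250, 0.0471 and 0.0495 in replicates 1, 2 and 3, or -4.69 ± 0.55 on the log2 scale (SD, n = 3). Without length scaling the count ratio was 0.0265, 0.0437 and 0.0354. The transcripts of COL1A1 have 61.0% GC and those of COL1A2 50.3%, while COL2A1, the highest collagen gene, has 62.6%. The part of GC content in the ratio was not tested.

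In type IV collagen, with 2 chains of COL4A1 to 1 of COL4A2, the TPM ratio was 0.272, 0.393 and 0.379 in replicates 1, 2 and 3, below 2 in each. Type V has 2 chains of COL5A1 to 1 of COL5A2, and the ratio was 0.444, 0.451 and 0.553. The trimer of COL4A5 and COL4A6, with 2 of the first to 1 of the second, went the other way at 3.36, 2.77 and 3.25. Without length scaling its count ratio was nearer to 2, at 2.04, 2.15 and 2.63. In type VI, with 1 chain of each gene, COL6A1 to COL6A2 was 1.65, 1.06 and 1.17, above 1 in each. With every gene given the length of its longest transcript, COL6A1 lay below COL6A2 in replicate 2 (137 and 141 TPM). COL6A3 to COL6A2 was 0.415, 0.657 and 0.367, and with the longest transcript as the length of each gene it was 0.153, 0.311 and 0.213.

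In type IX, with 1 chain of each gene, COL9A1 to COL9A2 was 1.21, 1.13 and 2.23 in replicates 1, 2 and 3, and COL9A3 to COL9A2 was 0.457, 0.681 and 0.578. Type XI of cartilage has 1 chain each of COL11A1, COL11A2 and COL2A1. COL11A1 to COL11A2 was 3.26, 5.96 and 6.08, and COL11A1 to COL2A1, which also makes its own homotrimer, was 0.108, 0.154 and 0.125. Of 10 ratios with a known chain number, all kept the same side of it in all 3 libraries in TPM as deposited. Flipping signs over the libraries, an exact permutation test (two-sided), gave p = 0.25 for each, also after Benjamini-Hochberg adjustment over the 10. This is the smallest p that n = 3 allows, so none could reach 0.05.

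**Figure D3:**
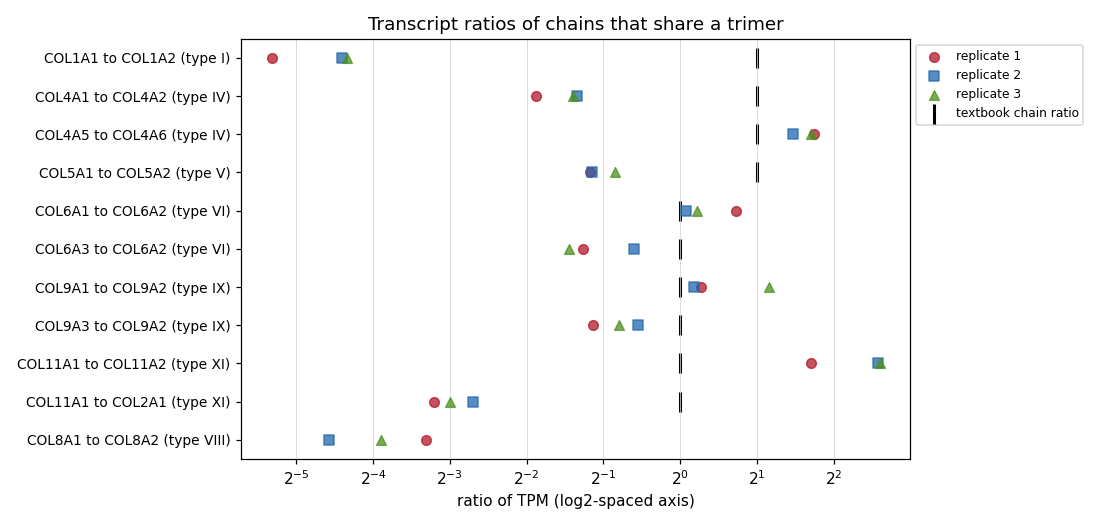
Ratio of TPM between chains that share a trimer, 1 point per library on a log2-spaced axis, with a black bar at the number of chains in the textbook trimer where there is one. COL1A1 to COL1A2 lies at 0.0250 to 0.0495 against a chain ratio of 2, and COL6A1 to COL6A2 at 1.06 to 1.65 against 1.

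Replicates were compared gene by gene with an edgeR test of whether 3 libraries spread more than the dispersion trend of all genes allows. A filter on low counts left 39 of the 44 collagen genes, the other 5 being COL17A1, COL10A1, COL4A4, COL20A1 and COL4A3. Excess spread was called for 6 of the 39 (15.4%), against 1.59% of all 17046 genes tested (edgeR, Benjamini-Hochberg adjusted over all genes, threshold 0.05). Called were COL6A3 (edgeR adjusted p = 0.000582), COL24A1 (0.000738), COL1A1 (0.00966), COL11A1 (0.0431), COL12A1 (0.0471) and COL5A2 (0.0475). COL6A3, COL1A1, COL11A1 and COL5A2 were lowest in replicate 1 and highest in replicate 2, in TPM and in CPM. The trended biological coefficient of variation at the level of COL6A3 was 18.0%.

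In CPM, counts scaled for library size with TMM factors, COL6A3 had 41.1, 158 and 89.1 in replicates 1, 2 and 3, and COL1A1 had 15.7, 50.4 and 26.4. COL11A1 had 101, 279 and 199 CPM, and COL5A2 had 83.3, 215 and 112 CPM. Replicate 2 was the highest in each of these. COL12A1 had 28.3, 67.6 and 31.2 CPM, where replicate 2 stood apart, and COL24A1 had 2.45, 14.9 and 14.6 CPM, where replicate 1 did. COL5A1 lay just above the threshold with an edgeR adjusted p of 0.0506. The calls depended on which libraries entered. Each fit without a replicate also re-estimated the dispersion, on fewer libraries. Its common biological coefficient of variation was 14%, 26.6% and 24.8% without replicates 1, 2 and 3, against 22.6% with all. A lost call thus does not by itself show which library stood apart. Without replicate 2 the call remained for COL24A1 alone of the 6, and without replicate 1 it was lost for COL24A1 (edgeR adjusted p = 0.9999) and COL11A1 (0.515). Without replicate 3 it was lost for COL11A1 (edgeR adjusted p = 0.082), COL5A2 (0.136) and COL12A1 (0.198). Their highest and lowest libraries, 2.77-fold apart in CPM for COL11A1, 2.58-fold for COL5A2 and 2.39-fold for COL12A1, are replicates 2 and 1, so these folds did not change without replicate 3.

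**Figure D4:**
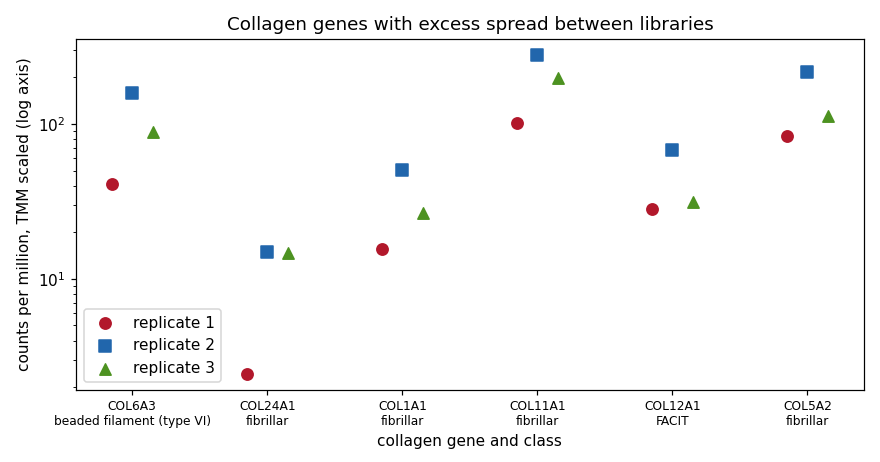
CPM with TMM scaling, on a log axis, of the 6 collagen genes with excess spread between libraries, 1 point per library. COL6A3 ranges from 41.1 to 158 CPM, and COL24A1 is at 2.45 CPM in replicate 1 and at 14.9 and 14.6 CPM in replicates 2 and 3.

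Replicates also differed with transcript length, which bears on collagen genes because they are long. The median effective length was 4248 bases for the 39 collagen genes and 2188 bases for all genes tested. In replicate 1 the log2 CPM of a gene, less the mean of the other libraries, changed by -0.19 per doubling of effective length over all 17046 genes, in replicate 2 by 0.08 and in replicate 3 by 0.11. The smooth trend in replicate 1 was 0.34 in the shortest fortieth of genes (median 265 bases) and -0.72 in the longest (median 9304 bases). The median collagen gene deviated by -0.65 log2 CPM in replicate 1, with 33 of 39 below 0, against 50.5% of all genes. With the length trend removed the median was -0.28, with 29 of 39 below 0, against 48.9% of all genes. The longer 20 collagen genes (4248 to 8704 bases) had a median of -0.70 in replicate 1 and the shorter 19 (1263 to 4244 bases) one of -0.35. These medians became -0.31 and -0.20 with the trend removed.

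Replicate 2 showed the reverse and depended less on length. Its median collagen gene deviated by 0.60 log2 CPM, and by 0.45 with the length trend removed, with 37 and 35 of 39 above 0. In replicate 3 the values were -0.09 and -0.20. In TPM the median of all detected genes itself deviated by -0.15, 0.06 and 0.10 on the log2 scale in replicates 1, 2 and 3, and that of detected collagen genes by -0.69, 0.61 and 0.05. In TPM, 31 of 39 collagen genes were lowest in replicate 1, against 56.1% of all genes tested, and 31 of 39 were highest in replicate 2, against 31.8%. In CPM with TMM scaling 28 of 39 were lowest in replicate 1, against 41.1% of genes, and 10 in replicate 3, against 33.2%. On that scale 34 of 39 were highest in replicate 2, against 25.5%. With the length trend removed in log2 CPM, 19 of 39 were lowest in replicate 1, against 38.0% of genes. Another 19 of 39 were then lowest in replicate 3, against 34.6%, and 30 of 39 were highest in replicate 2, against 27.9%. Excess spread was again called for 6 collagen genes with the length trend removed, against 1.84% of genes. COL3A1 (edgeR adjusted p = 0.0074) was then called and COL11A1 (edgeR adjusted p = 0.0548) was not. With length and GC trends removed, 9 of 39 were called, against 1.8% of genes.

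**Figure D5:**
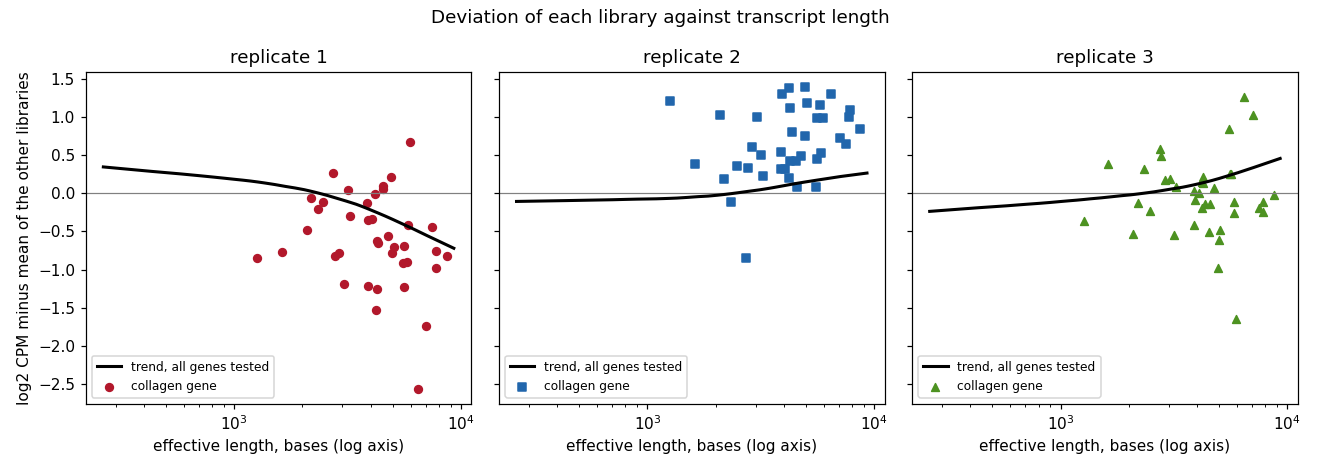
Log2 CPM in each library less the mean of the other libraries, plotted by effective length on a log axis, with 1 point per collagen gene and a black line for the trend of all genes tested. In replicate 1 the trend falls with length and the median collagen gene lies at -0.65, and in replicate 2 it lies at 0.60.

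The estimated length itself also moved between libraries. COL11A1 had an estimated length of 4776, 6417 and 6357 bases in replicates 1, 2 and 3, COL12A1 one of 4002, 5907 and 6020 bases and COL6A3 one of 3639, 4563 and 5177 bases, all shortest in replicate 1. COL1A1 went the other way with 4807, 4304 and 3333 bases. The highest estimate was a median of 1.09 times the lowest for detected collagen genes and 1.06 times for all detected genes. TPM divides by this length, so a shorter estimate gives a higher TPM for the same count.

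Genes that build and sense collagen were mostly present, with 36 of 45 detected. Of 13 genes of chain hydroxylation and glycosylation 12 were detected, led by P4HB, a subunit of prolyl 4-hydroxylase, at 290 ± 18.6 TPM and the prolyl 3-hydroxylase P3H1 at 90.9 ± 5.72 TPM, with P4HA3 at 0.28 ± 0.14 TPM not detected. All 10 folding and export genes were detected, led by the cyclophilin PPIB at 657 ± 70.3 TPM and the collagen chaperone SERPINH1 at 257 ± 55.1 TPM. Their summed level was 1331, 1534 and 1330 TPM in replicates 1, 2 and 3. In the edgeR test 0 of 12 and 0 of 10 tested genes of these groups had excess spread, against 1.59% of all genes, and 0 and 1 had an unadjusted p below 0.05. With so few genes these counts do not set the groups apart from other genes.

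Of 8 genes of propeptide removal 6 were detected, led by PCOLCE, an enhancer of the C-proteinase, at 161 ± 16.9 TPM and the proteinase BMP1 at 18.4 ± 1.32 TPM. ADAMTS14 at 0.38 ± 0.23 TPM and TLL1 at 0.37 ± 0.16 TPM were not. Of 5 lysyl oxidases, which cross-link fibrils, 4 were detected, led by LOXL2 at 56.8 ± 19.8 TPM and LOXL1 at 16.7 ± 2.39 TPM, and LOXL4 at 0.24 ± 0.16 TPM was not.

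Of 9 collagen receptor genes 4 were detected, the integrin chain ITGB1 at 213 ± 49.05 TPM, the receptor kinase DDR1 at 71.2 ± 3.30 TPM, DDR2 at 29.2 ± 15.9 TPM and ITGA1 at 12.6 ± 7.65 TPM. Excess spread was called for DDR2, with 10.97, 40.2 and 36.4 TPM in replicates 1, 2 and 3, and ITGA1, with 4.08, 18.8 and 14.95 TPM (edgeR adjusted p = 0.00543 each). Both were lowest in replicate 1 and highest in replicate 2. ITGA11 at 1.06 ± 0.57, ITGA2 at 0.40 ± 0.25, ITGA10 at 0.40 ± 0.05, GP6 at 0.087 ± 0.042 and LAIR1 at 0.087 ± 0.061 TPM were not detected. Of the 41 tested genes in these lists, DDR2 and ITGA1 were the 2 with excess spread (4.88%, against 1.59% of all genes), and both are named for it after their values were seen.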

How the data were processed

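An RSEM gene table was deposited for each of the 3 libraries. Its expected count column holds, per the file headers, estimated reads that may be fractional, without normalization. TPM, also deposited, corrects for effective length and sums alike in every library. FPKM as deposited by the authors served in alternatives only. Tools named in the submitters' processing notes are STAR 2.7.11a, RSEM 1.3.1 and Trim Galore 0.6.10, and the build is GRCh38. The annotation release, the strandedness and the read layout were not given in the sources used here.

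Gene types, GC content and longest transcripts came from GENCODE 29 (92.8% of identifiers matched, all 44 members), coordinates (1-based) and promoters from RefSeq (GRCh38.p14). Expected counts were rounded, filtered with filterByExpr and TMM scaled in edgeR 4.0.16 (R 4.3.3). The residual deviance of an intercept-only fit at trended dispersion was referred to chi-square (2 degrees of freedom), with p-values adjusted by Benjamini-Hochberg over all genes, threshold 0.05. With 1 group, no quasi-likelihood contrast exists. Length trends were lowess fits (span 0.3) of log2 CPM deviations. A floor is 3 counts. The test was checked only on simulated counts drawn at the trended dispersion of these data. That check does not cover genes whose own dispersion departs from the trend. Python 3.11.15, scipy 1.17.1 and DESeq2 1.42.0 (alternatives) were also used.

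All collagen genes were accounted for. Values in full were given for detected genes and ratio pairs, and for partner genes the 2 highest per group and those undetected. Members, lists, tests and this rule were chosen with earlier results of these data known. Protein comparisons planned for pairs were not made. The planned promoters of COL1A1 and COL1A2 had no window in the RefSeq set used. The windows of COL4A3 with COL4A4 and COL4A5 with COL4A6 were not planned and were shown beside the planned COL4A1 and COL4A2 pair.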

Additional observations from a re-analysis of the deposited data

How the results depend on the processing

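Direction of the mean log2 ratio over libraries held for all 11 chain ratios in the 88 alternative values computed for them. These used FPKM, counts without length scaling, full gene length and each replicate left out. They also used 1 fixed length per gene and the longest transcript, both added after the data were seen. FPKM could not reverse a ratio, because within a library it gives the same ratio as TPM. Nor could leaving out a replicate, because every TPM ratio lay on the same side in all 3 libraries. In replicate 2 alone, the longest transcript put COL6A1 below COL6A2 and COL9A1 below COL9A2. Without 1 replicate in turn the log2 ratio of COL1A1 to COL1A2 ranged from -4.86 to -4.37. COL6A3 to COL6A2 changed to -2.21 on the log2 scale with the longest transcript, against -1.11 in TPM. The fibrillar share of collagen levels was 56.0% in CPM without length scaling, against 50.3% in TPM. Detected collagen genes numbered 32 at a minimum of 0.5 TPM, 23 at 5 TPM and 39 at 10 counts. The share of all genes was taken at 1 TPM only, so these counts do not set collagen genes beside other genes.

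The count of collagen genes with excess spread depended most on the setting. It was 6 with DESeq2 size factors (1.58% of all genes) and with the length trend removed (1.84%), and 9 with length and GC trends removed (1.8%). It was 3 with upper quartile scaling (1.44% of all genes), 3 with no filter beyond a count above 0 (0.946%), 3 at a threshold of 0.01 (0.927%) and 0 by DESeq2's dispersion outlier mark (0.199%). At an unadjusted edgeR p below 0.05 there were 18 of 39, against 7.35% of all genes. The adjusted count was 8 of 39 without replicate 1 (0.669% of all genes), 1 without replicate 2 (0.551%) and 3 without replicate 3 (0.592%). COL11A1 (adjusted edgeR p 0.044 to 0.78 over its alternatives) was below 0.05 in 1 of 8, COL12A1 and COL5A2 in 4 of 8, and COL6A3, COL24A1 and COL1A1 in 7 of 8. The cause of these differences was not tested. In log2 CPM with the length trend removed, 19 collagen genes were lowest in replicate 1 (38.0% of all genes). The number was 28 in CPM with TMM scaling (41.1%) and 31 in TPM (56.1%). For replicate 3 the numbers were 19 (34.6%), 10 (33.2%) and 7 (22.2%) in the same order.

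No paired analysis was possible because there is 1 group. Collagen genes under 10 counts in a library cannot be ranked at this depth.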
